A study of Mus musculus with 3 samples.

Results

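Genes of DNA repair were followed in mouse aortic endothelial cells, purchased cells of the inner lining of that vessel. The set held 49 genes of the 18287 that the deposited tables list: 17 genes of homologous recombination, 10 Fanconi anemia genes, 3 RecQ helicases, 5 checkpoint genes, 3 genes each of mismatch repair and of end joining, and 8 genes of excision and single-strand break repair. They were chosen by symbol, with the values of both comparisons against control already known, so the set is a chosen one and its counts are a description. All 49 were listed in both tables, and none was lost to a filter, since the lowest count of any member in any library was 30 reads. The first library was labelled control, with no agent named. The glucose oxidase library came from cells given that enzyme, a source of hydrogen peroxide from glucose (5 mU/mL, 30 min). The library with both agents came from cells given the same glucose oxidase dose and 0.2 mM ethyl-2-hydroxybenzylamine (Et2HOBA) for 24 h. In the study Et2HOBA serves as a scavenger directed at isolevuglandins, which are reactive products of lipid oxidation. Each group was 1 library, so no difference could be set against replicate spread and conditions could not be tested. The labels give neither the order of the agents nor the number of animals behind the culture, and cells given Et2HOBA alone were not analysed here.

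A break across both DNA strands can be mended by copying the sister chromatid (homologous recombination, run by Brca1, Brca2, Palb2 and their partners) or by rejoining the ends (end joining, run by the Ku proteins Xrcc5 and Xrcc6). The Fanconi pathway unhooks crosslinks between the strands: a core complex attaches ubiquitin to the pair Fancd2 and Fanci, and the recombination proteins finish the repair. Because recombination needs a sister chromatid, many recombination and Fanconi genes are transcribed mainly in cells that replicate DNA, whereas end joining and most excision repair genes are kept on in resting cells. Reactive oxygen species mainly make oxidized bases and single-strand breaks, which base excision repair removes.

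Depth was similar in the 3 libraries, with 35005089 to 40212212 reads over the listed genes. The glucose oxidase library stood apart in processed pseudogenes, of which 841 of 2110 were lower than control past 1 log2 unit, against 52 in the library with both agents. All 12 endothelial markers were listed, and their summed normalized count was 385394 in control, 253568 after glucose oxidase and 230979 with both agents. They did not move as a block. With both agents 5 of the 12 (Cldn5, Erg, Kdr, Tek and Vwf) were lower than control past 1 log2 unit, and none was higher past it. Cdh5 went up from 53644 in control to 61298 with both agents, and Emcn from 5206 to 7641. Among markers of other cell types, a single gene carried each sum that was higher. The 3 listed of 6 macrophage markers summed to 8146, 17770 and 26858 in the same order, of which Cd68 made 7960, 17679 and 26766. Lyz2 went the other way, from 180 in control to 82.8 with both agents, Csf1r had 6 to 12 reads, and Ptprc, Adgre1 and Itgam were not among the listed genes. The 4 listed of 6 fibroblast markers summed to 1326, 2746 and 3783. Of these, Pdgfra was at 104 in control and 2716 with both agents, Pi16 at 1193 and 1045, Col1a1 at 27.1 and 22.1, and Col3a1 at 0 with both agents. The 2 listed of 6 mesothelial or epithelial markers summed to 951, 2588 and 3765, of which Msln made 950, 2582 and 3759. The 5 listed of 6 smooth muscle markers summed to 4859, 3717 and 3943, of which Smtn made 4816, 3643 and 3847. Myh11 went the other way at 18.4, 36.3 and 70.3, higher than control with both agents past 1 log2 unit. Acta2, Des and Tagln had 4 to 18 reads. No listed marker was at 0 in control, and the part of these markers in the results below was not tested.

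With both agents, 8 of 17 recombination genes and 5 of 10 Fanconi genes were lower than control, where 8.04% of all listed genes were. None of the 3 end joining genes or 3 helicases was lower, but these are too few to set against that share. Rad54b, Msh3 and Ogg1 were higher, a number near the share of all genes. Values are given as reads, as normalized counts (reads divided by a size factor of the library), and as a log2 ratio, the log2 of the ratio of normalized counts after adding 10 to each. A gene is called lower or higher here when its log2 ratio is -1 or below, or 1 or above. After glucose oxidase 10 of the 49 genes were lower, or 20.4%, where 8.60% of all listed genes and 4.76% of protein-coding genes were. With both agents 16 were lower, or 32.7%, against 8.04% of all listed genes and 9.30% of protein-coding genes. The genes called higher were 2 after glucose oxidase and 3 with both agents, or 4.08% and 6.12% of the set. The backgrounds for these were 4.07% and 6.66% of all listed genes and 4.53% and 7.33% of protein-coding genes, so the number of higher genes was near that of all genes. The median log2 ratio of the set was -0.16 after glucose oxidase and -0.49 with both agents, and the median over all listed genes was -0.01 and -0.00. By the deposited scale, which shrinks low counts, 3 and 12 of the 49 genes were lower, where 2.50% and 5.17% of all listed genes were. The second count was without Bard1, Palb2, Pms2 and Rad51b. In bulk RNA, fewer cycling cells and less RNA of these genes per cell cannot be told apart.

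**Figure D1:**
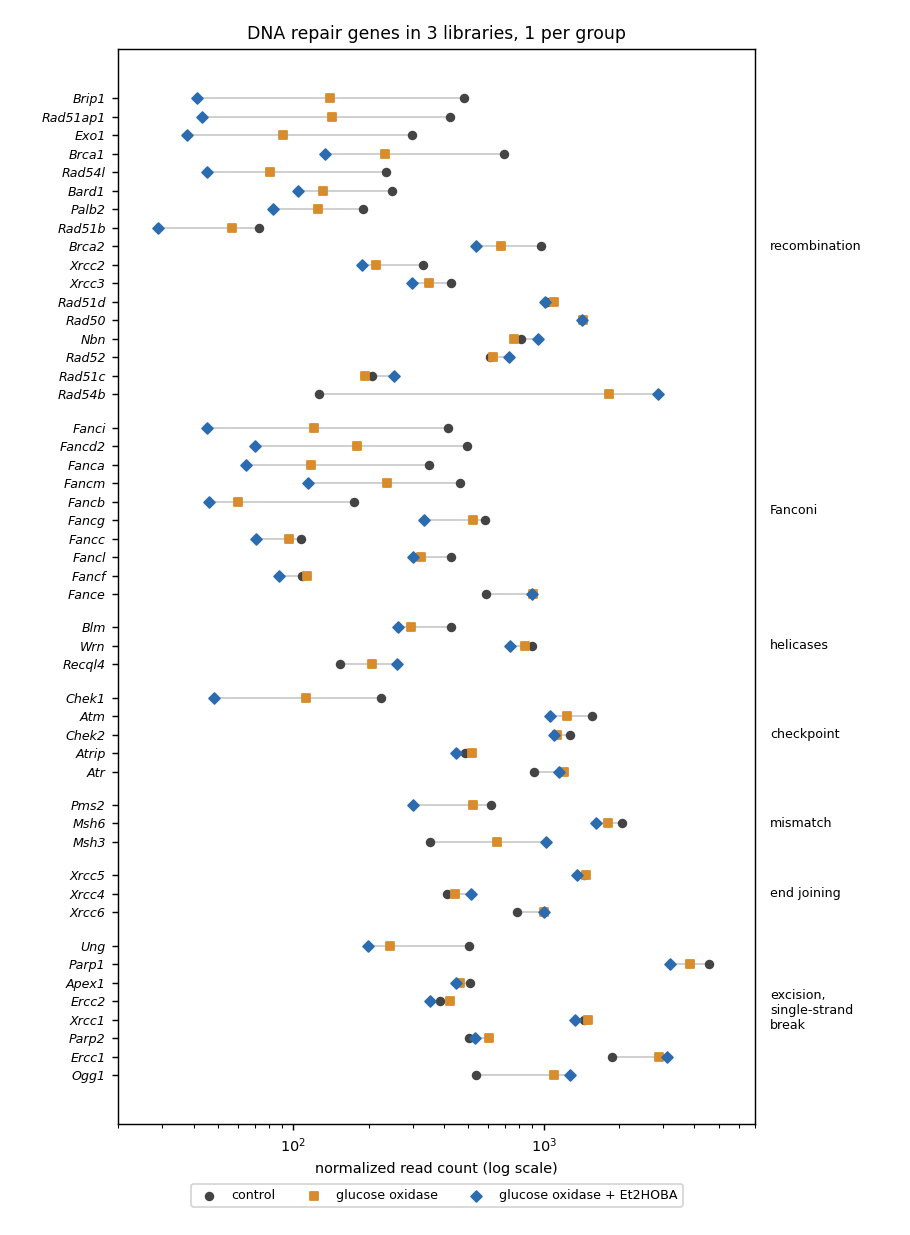
Normalized read count (log axis) of each of the 49 repair genes in each library (control, glucose oxidase, and both agents), grouped by role and ordered by log2 ratio of the last library to control. The recombination and Fanconi genes spread widely, from Brip1 (481 in control, 41.4 with both agents) to Rad54b (127 and 2855), while Rad50 stayed at 1418 and 1419.

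Among the genes of homologous recombination, 5 of 17 were lower and 1 higher after glucose oxidase, and 8 were lower and 1 higher with both agents. Brip1 (ENSMUSG00000034329.16, chromosome 11, 86058138 to 86201193, GRCm38), a helicase that binds Brca1, was counted at 496 reads in the control library, 135 in the glucose oxidase library and 43 in the one with both agents. That was 0.291 of the control level after glucose oxidase (95% interval 0.239 to 0.353) and 0.0861 of it with both agents (0.0616 to 0.118). Brip1 had the lowest log2 ratio of the 49 genes in each of the 3 comparisons, at -1.71, -3.25 and, between the treated libraries, -1.54. The next genes were Fanci at -1.70 and then Rad51ap1 at -3.03 and -1.52. Their intervals overlap those of Brip1, so its rank is within counting error. Rad51ap1 (ENSMUSG00000030346.16), which helps a broken end pair with its template, had 438, 138 and 45 reads, and its level with both agents was 0.102 of control (0.0734 to 0.139). Exo1, a nuclease that trims broken ends and also serves mismatch repair, had 306, 88 and 39 reads, or 0.127 of control (0.0883 to 0.177) in the last library. For these 3 genes the control library was highest and the library with both agents lowest, with gaps wider than the counting intervals. Intervals here are exact (Clopper-Pearson), computed from the reads of the 2 libraries compared, and include no variation between cultures.

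Brca1 and its partner Bard1, which together form a ubiquitin ligase at broken ends, were both below the limit with both agents but by different amounts. Brca1 (ENSMUSG00000017146.12, chromosome 11, 101488764 to 101551955) had 715, 224 and 139 reads, with log2 ratios of -1.54 and -2.29 against control. Bard1 had 255, 126 and 108 reads, with log2 ratios of -0.87 and -1.17, so only the second passed the limit. Palb2, which links Brca1 to Brca2, had 196, 121 and 86 reads and log2 ratios of -0.56 and -1.11. Brca2, which acts at broken ends during strand exchange, had 1004, 655 and 556 reads and log2 ratios of -0.51 and -0.85, and was the first gene outside the limit with both agents; Pms2, at -1.01, was the last inside it. Within this chain of 4 proteins the transcripts thus differed widely, from 0.193 of control for Brca1 (0.160 to 0.232) to 0.550 for Brca2 (0.495 to 0.611) with both agents.

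Rad51b, Rad51c, Rad51d, Xrcc2 and Xrcc3, paralogs of each other that work in shared complexes during recombination, did not move as a block. Rad51b, with the fewest reads of the set in each library, had 75, 55 and 30 reads, and with both agents its level was 0.397 of control (0.251 to 0.614). Xrcc2 had 341, 207 and 195 reads and Xrcc3 had 442, 335 and 309, with log2 ratios of -0.78 and -0.51 with both agents. Rad51d was flat at 1061, 1058 and 1048 reads. Rad51c had 213, 186 and 262 reads, a log2 ratio of 0.28 with both agents. The order of the paralogs by log2 ratio with both agents was therefore Rad51b, Xrcc2, Xrcc3, Rad51d and Rad51c, and the intervals of Rad51b and Xrcc2 overlap (0.251 to 0.614 and 0.474 to 0.680). Rad50 and Nbn, which hold and sense broken ends in 1 complex, had 1463, 1385 and 1474 reads and 841, 737 and 983 reads. Rad52, which anneals single strands, had 630, 604 and 752. None of these last 3 passed 0.5 log2 units in any comparison.

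Rad54b and its paralog Rad54l moved in opposite directions. Both are DNA translocases of the Swi2/Snf2 family that work during strand exchange. Rad54b (ENSMUSG00000078773.11, chromosome 4, 11558922 to 11615805) went from 131 reads in the control library to 1754 with glucose oxidase alone and 2965 with both agents. This was 14.3-fold the control level after glucose oxidase (12.0 to 17.2) and 22.5-fold with both agents (18.9 to 27.0). Rad54l (ENSMUSG00000028702.15, chromosome 4, 116094264 to 116123690) had 243, 78 and 47 reads, or 0.343 (0.262 to 0.445) and 0.192 (0.138 to 0.264) of control. The ratio of Rad54b reads to Rad54l reads within a library was 0.539 in control (0.433 to 0.669), 22.5 after glucose oxidase (17.9 to 28.6) and 63.1 with both agents (47.3 to 86.1). Divided by annotated exon length, the normalized count per kilobase was 22.0, 314 and 494 for Rad54b and 30.6, 10.5 and 5.87 for Rad54l. Rad54b was thus the more abundant of the pair in the treated libraries. The Rad54b length includes 2068 bases shared with Fsbp, and the sources do not say how reads there were assigned. The order of the pair in control therefore cannot be settled. By log2 ratio Rad54b ranked 18 from the top of all 18287 genes after glucose oxidase, at 3.74, and 15 with both agents, at 4.39. In the authors' deposited table its log2 differences were 2.78 and 3.94. Between the treated libraries it was 1.57-fold higher with Et2HOBA (1.48 to 1.67), a log2 ratio of 0.65. In control Rad54b took 0.371% of the reads of the 49 genes, and with both agents 8.90%.

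The position of Rad54b bears on how its reads can be read. Of its 5782 annotated exon bases, 2068 are also exons of Fsbp, a gene on the same strand inside the Rad54b interval, and 7 are shared with Gm11832, a non-coding gene on the other strand. Fsbp had 10, 5 and 8 reads, too few to show a difference between libraries (0.273 to 2.24 of control with both agents). Gm11832, which lies toward the end of Rad54b, had 9, 98 and 148 reads, and was 16.3-fold higher with both agents (8.38 to 36.4). It thus moved in the same direction as Rad54b. The strand setting of the counting is not given in the sources used here, so Gm11832 reads cannot be told apart from unspliced Rad54b reads. Virma, the neighbour upstream of Rad54b, had 2806, 2381 and 2546 reads, a log2 ratio of -0.15 with both agents. The tables give no counts per exon, so which of the Rad54b transcripts was more abundant was not tested.

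**Figure D2:**
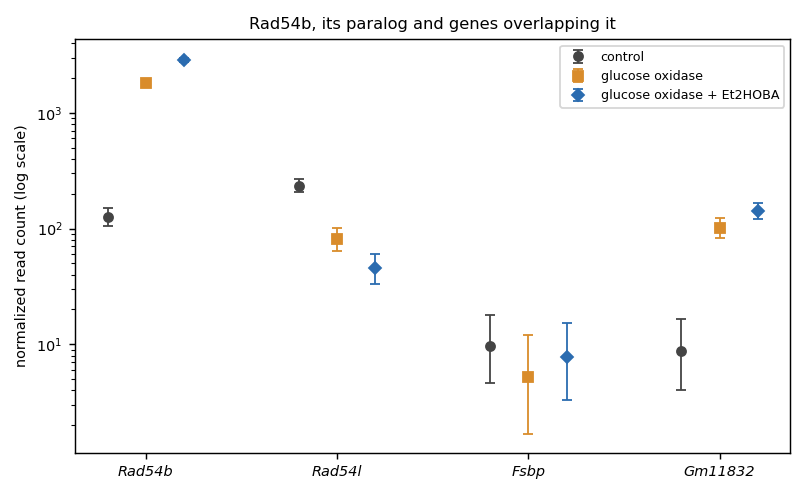
Normalized read count (log axis) of Rad54b, Rad54l and the 2 genes whose exons overlap Rad54b, in each library; bars are exact 95% Poisson intervals for counting error. Rad54b went from 127 to 1817 and 2855 while Rad54l went from 235 to 80.8 and 45.3; Fsbp was at 9.69 or below and Gm11832 went from 8.72 to 142.

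Of the 10 Fanconi genes, 4 were lower after glucose oxidase and 5 with both agents, and none was higher. Fanci (ENSMUSG00000039187.16, chromosome 7, 79391929 to 79450264) had 429, 117 and 47 reads, and Fancd2 (ENSMUSG00000034023.16, chromosome 6, 113531682 to 113597017) had 510, 173 and 73. These are the paired proteins that receive ubiquitin, and their transcripts were at 0.109 (0.0788 to 0.147) and 0.142 (0.110 to 0.182) of control with both agents. The core complex was uneven. Fanca had 360, 114 and 67 reads, Fancb had 180, 58 and 48, and Fancm, the translocase that brings the complex to DNA, had 480, 229 and 118, all past the limit with both agents at log2 ratios of -2.27, -1.71 and -1.94. Fancg, at 601, 503 and 345 reads, had a log2 ratio of -0.79, and Fancc, at 110, 93 and 74 reads, one of -0.52. Fancl, the ubiquitin ligase subunit, had 440, 313 and 313 reads, a log2 ratio of -0.49. Fancf had 111, 109 and 91 reads, and its interval with both agents held equality (0.611 to 1.08). Fance, the subunit that contacts Fancd2, ran the other way at 605, 872 and 931 reads, 1.53-fold of control with both agents (1.38 to 1.70). The core complex thus ranged from 0.185 (Fanca) to 1.53 (Fance) of the control level.

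Chek1 was the one gene of the 5 checkpoint genes past the limit. Chek1 (ENSMUSG00000032113.16), the kinase that slows the cell cycle when replication stalls, had 230, 108 and 50 reads, or 0.216 of control with both agents (0.156 to 0.294). Atr, the kinase that activates it, had 944, 1166 and 1190 reads, 1.25-fold of control (1.15 to 1.37), and its partner Atrip had 500, 498 and 463. Of the kinase pair that responds to broken ends, Atm had 1609, 1195 and 1103 reads, a log2 ratio of -0.55 with both agents, and Chek2 had 1312, 1095 and 1141, one of -0.21.

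None of the 3 RecQ helicases passed the limit. Blm, which dissolves crossed DNA intermediates, had 441, 285 and 272 reads, a log2 ratio of -0.69 with both agents. Wrn had 925, 814 and 761 reads, and Recql4 had 159, 199 and 269, with log2 ratios of -0.29 and 0.71. Recql4 and Blm, both known for roles in replication, therefore lay on opposite sides of control.

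The mismatch repair genes split 3 ways with both agents. Msh3 (ENSMUSG00000014850.15, chromosome 13, 92211872 to 92355003), which recognizes small loops of unpaired bases, had 362, 629 and 1057 reads, 2.90-fold of control (2.57 to 3.28). Msh6, which recognizes single mismatches, had 2127, 1750 and 1688 reads, 0.789 of control (0.739 to 0.841). Pms2, which cuts the strand to be replaced, had 636, 506 and 312 reads, 0.487 of control (0.424 to 0.559).

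Of the 8 genes of excision and single-strand break repair, Ogg1 was higher and Ung lower, and the other 6 were within the limit. Ogg1 (ENSMUSG00000030271.14, chromosome 6, 113326972 to 113335068), the glycosylase that removes 8-oxoguanine, went from 552 reads in the control library to 1058 with glucose oxidase alone and 1317 with both agents. It was 2.05-fold of control after glucose oxidase (1.85 to 2.28), at a log2 ratio of 1.02 just past the limit, and 2.37-fold with both agents (2.14 to 2.62). The first call was lost under other scalings and with 50 added in place of 10, with log2 ratios of 0.97 for total-count scaling and for the pseudocount, and 0.98 for size factors from protein-coding genes; on the deposited scale it was 0.84. Camk1, on the other strand, shares 232 of the 2187 Ogg1 exon bases and had 3286, 7328 and 9778 reads, log2 ratios of 1.25 and 1.56. Its part in the Ogg1 count was not tested. Ung, which removes uracil from DNA, had 519, 235 and 206 reads, log2 ratios of -1.02 and -1.30; the first, just past the limit, was lost on the deposited scale and with 50 added.

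Apex1, which cuts the strand where a base is missing, had 526, 448 and 463 reads, and 61.7% of its exon bases are also exons of Pip4p1 on the other strand. Xrcc1, the scaffold of single-strand break repair, had 1497, 1447 and 1383 reads. Parp1, with the most reads of the set, had 4707, 3715 and 3312 reads, 0.699 of control with both agents (0.669 to 0.731), and Parp2 had 517, 584 and 554. These poly(ADP-ribose) polymerases bind broken strands and mark the site. In nucleotide excision repair, Ercc1, part of the nuclease that cuts beside a lesion, had 1926, 2788 and 3224 reads, 1.66-fold of control (1.57 to 1.76), and the helicase Ercc2 had 398, 407 and 366.

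None of the 3 end joining genes passed the limit in any comparison. Xrcc5 and Xrcc6, the Ku subunits, had 1502, 1418 and 1409 reads and 806, 964 and 1045 reads. Xrcc4, which holds the ligase at the ends, had 425, 428 and 534. Their log2 ratios lay between -0.10 and 0.36 in both comparisons against control.

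Set against each other, the treated libraries differ in label by Et2HOBA, given in one of them. They also differ in processed pseudogenes, of which 959 of 2110 were higher with Et2HOBA past 1 log2 unit. With 1 library per group, Et2HOBA and other differences between the libraries cannot be told apart. In this comparison 6 of the 49 genes were lower with Et2HOBA, or 12.2%, against 2.15% of all listed genes and 2.35% of protein-coding genes. None was higher, against 6.39% and 0.971%, and the pseudogenes are part of the 6.39%. With 1 library a group no test was run by any tool. The 6 were Brip1 at 0.296 of the glucose oxidase level (0.205 to 0.420), Rad51ap1 at 0.303 (0.212 to 0.427), Fanci at 0.373 (0.260 to 0.528), Fancd2 at 0.392 (0.294 to 0.518), Exo1 at 0.412 (0.275 to 0.607) and Chek1 at 0.430 (0.301 to 0.607). Their intervals overlap, so these 6 cannot be ordered. Fancm, at 0.479 (0.380 to 0.601), lay just outside the limit. Rad54b and Msh3 had the highest log2 ratios of the set in this comparison, 0.65 and 0.64, and Rad51c followed at 0.37. This comparison shares a library with each of the others, so its values are not separate support for them. The deposited scale was computed here for this comparison, from constants fitted to 7 deposited values. On it none of the 6 passed the limit, and 0.0383% of all listed genes were lower past it. With 50 added in place of 10 only Brip1 and Rad51ap1 passed the limit.

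Genes outside the set were read from lists of the same pathways. Of 38 other recombination and Fanconi genes listed, 5 (13.2%) were lower after glucose oxidase and 8 (21.1%) with both agents. Among all listed genes 8.60% and 8.04% were lower. None of the 38 was higher, against 4.07% and 6.66%, and their medians were -0.09 and -0.26. Gen1, a nuclease that cuts crossed strands, had 424, 111 and 47 reads, a log2 ratio of -2.93 with both agents. Abraxas1 and Mad2l2 were the highest, at 0.66 and 0.41. Of 16 other base excision genes, 3 (18.8%) were lower after glucose oxidase and 4 (25.0%) with both agents, against the same 8.60% and 8.04%. Neil3, a glycosylase linked to replication, had 336, 90 and 36 reads and the ligase Lig1 had 1960, 747 and 525, while Polb, the gap-filling polymerase, had 919, 1301 and 1834 and Nthl1, another glycosylase, had 400, 596 and 565.

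The 17 genes of proliferation were mostly lower as well. They had medians of -1.14 after glucose oxidase and -2.10 with both agents. In the same order 11 and 14 of them were lower, where 8.60% and 8.04% of all listed genes were. All 17 log2 ratios were below 0 in each comparison. Ccna2, the cyclin of S and G2 phase, had 1723, 339 and 171 reads, and Mki67, a marker of cycling cells, had 5338, 1181 and 675. The least changed were E2f1, at 1861, 1708 and 1726 reads, and E2f8, at 916, 662 and 688. The log2 ratios of Brip1, Rad51ap1 and Fanci with both agents, at -3.25, -3.03 and -2.95, lay in the range of these genes, which ran from -3.27 to -0.12. The part of cell cycling in the repair gene values was not tested.

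**Figure D3:**
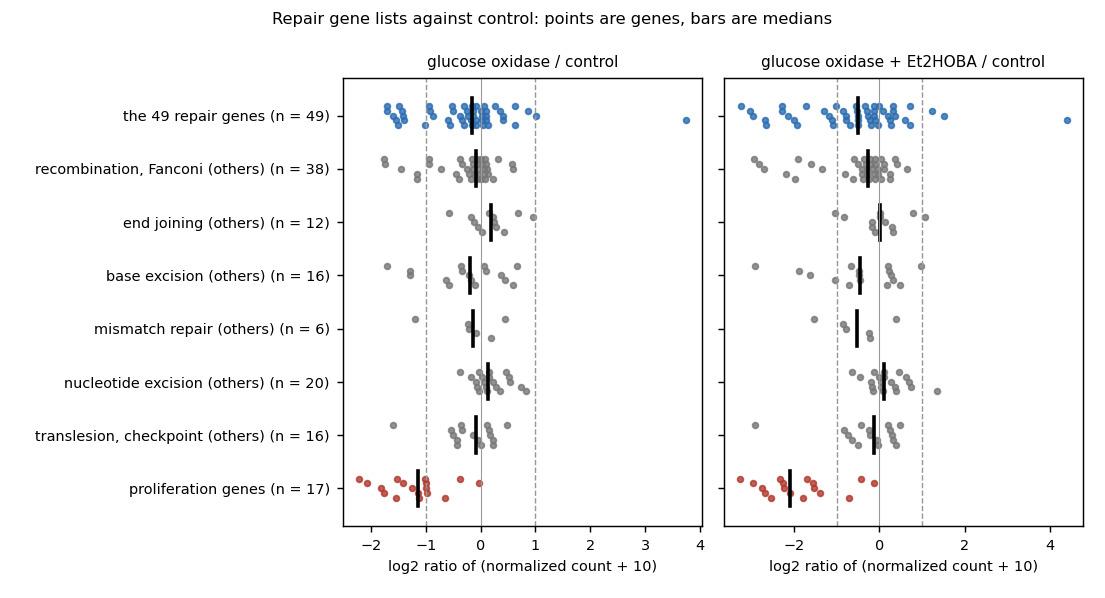
Log2 ratio of (normalized count + 10) for each gene of the 49 repair genes, of 6 lists of other repair genes and of the proliferation list, for glucose oxidase (left) and glucose oxidase plus Et2HOBA (right) against control; bars are medians and dashed lines the limit of 1. The proliferation list has medians of -1.14 and -2.10, the 49 genes of -0.16 and -0.49, and the isolated point on the right of each panel is Rad54b.

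Genes that start next to a repair gene were read for comparison. Of the 49, 17 have a listed gene that starts on the other strand within 1000 bases upstream in GENCODE release M21, so that the 2 starts face away from each other. With both agents all 17 neighbours were within the limit, as were 15599 of all 18287 listed genes. For 9 of the 17 the repair gene itself was lower, which is how these 9 are picked out here, and their neighbours lay between -0.46 and 0.27. Fancd2 starts 30 bases from Emc3, which had 5770, 4910 and 5732 reads, a log2 ratio of -0.02 beside -2.65 for Fancd2. Brca1 starts 194 bases from Nbr1, which had 6150, 6337 and 6818 reads, 0.14 beside -2.29. Rad54l starts 150 bases from Pomgnt1, which had 1807, 1842 and 2201 reads, 0.27 beside -2.15. The neighbours of Palb2 (Dctn5), Fancb (Mospd2), Pms2 (Aimp2) and Rad51b (Zfyve26) were at -0.25, -0.15, 0.01 and 0.10. Brip1os, beside Brip1, had 2403, 1740 and 1837 reads, a log2 ratio of -0.39, and D6Wsu163e, beside Rad51ap1, had 1052, 718 and 766, one of -0.46, so these neighbours were themselves below control. Since 1 library stands for each group, the difference within a pair has no replicate check either.

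**Figure D4:**
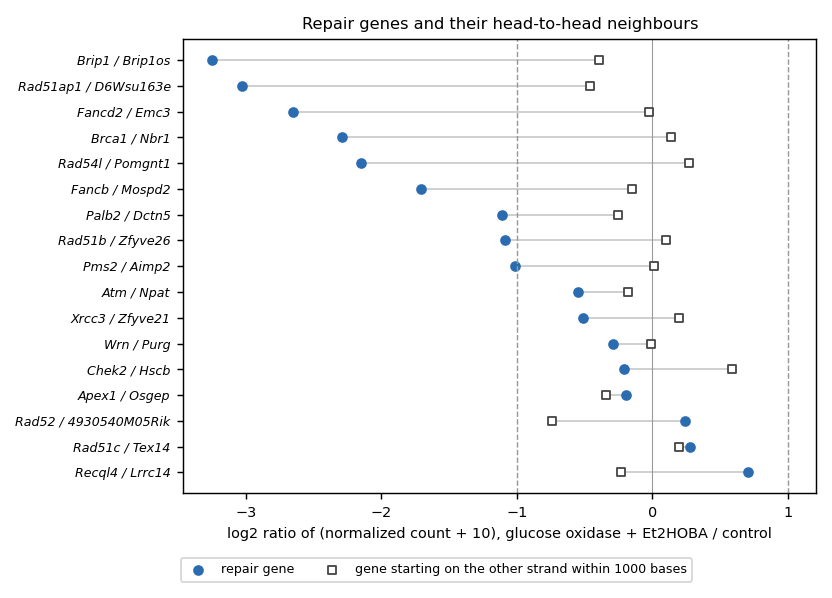
Log2 ratio of (normalized count + 10), glucose oxidase plus Et2HOBA against control, for 17 repair genes (circles) and the gene that starts on the other strand within 1000 bases (squares); dashed lines mark the limit of 1. All 17 neighbours lie within the limit, and those of the 9 repair genes at or below -1 lie between -0.46 and 0.27.

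Promoter sequences, from 250 bases before to 50 bases after the start, were found in the RefSeq table (GRCm38.p6) for 40 of the 49 genes, as 43 windows, some of which overlap. They were searched on both strands for 3 elements of cell cycle promoters: the E2F site in 4 spellings (TTTCCCGC, TTTGGCGC, TTTCGCGC and TTTGCCGC, which can overlap each other), the CHR element TTTGAA and the CCAAT box. An E2F spelling was in 9 of the 43 windows, or 20.9%, against 2.26% of 32851 windows of all genes. It was in 1 of 16 windows of the genes lower with both agents and in 8 of the other 27. CCAAT was in 12 of the 16 (75.0%) and 15 of the 27 (55.6%), against 37.4% of all windows, and CHR in 2 of the 16 and 0 of the 27, against 17.9%. The shares are given as a description, and whether they differ was not tested. A match is a description and not a site of binding, and a window without one says only that these letters are not in it.

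The promoters of 4 genes are shown for contrast, 5′ to 3′ on the strand of the gene, with matches to the 3 elements in capitals. Bard1 (chr1:71102923-71103222, minus strand) and Brca2 (chr5:150522371-150522670, plus strand) are the 2 genes with the lowest log2 ratio, -1.17 and -0.85, among those with an E2F match. Msh3 (chr13:92354954-92355253, minus strand) and Ogg1 (chr6:113326726-113327025, plus strand) are the 2 with the highest log2 ratio among those in the promoter table.
Bard1: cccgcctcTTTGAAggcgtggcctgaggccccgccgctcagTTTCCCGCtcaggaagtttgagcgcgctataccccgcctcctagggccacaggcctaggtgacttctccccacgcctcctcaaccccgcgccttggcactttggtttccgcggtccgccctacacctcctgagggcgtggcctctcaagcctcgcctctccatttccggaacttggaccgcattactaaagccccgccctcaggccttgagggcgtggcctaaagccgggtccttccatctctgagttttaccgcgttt
Brca2: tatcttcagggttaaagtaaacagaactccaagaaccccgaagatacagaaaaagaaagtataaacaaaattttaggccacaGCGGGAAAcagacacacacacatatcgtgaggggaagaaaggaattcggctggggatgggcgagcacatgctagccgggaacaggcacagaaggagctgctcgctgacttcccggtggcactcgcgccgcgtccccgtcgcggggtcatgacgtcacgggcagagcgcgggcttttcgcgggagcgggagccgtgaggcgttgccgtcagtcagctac
Msh3: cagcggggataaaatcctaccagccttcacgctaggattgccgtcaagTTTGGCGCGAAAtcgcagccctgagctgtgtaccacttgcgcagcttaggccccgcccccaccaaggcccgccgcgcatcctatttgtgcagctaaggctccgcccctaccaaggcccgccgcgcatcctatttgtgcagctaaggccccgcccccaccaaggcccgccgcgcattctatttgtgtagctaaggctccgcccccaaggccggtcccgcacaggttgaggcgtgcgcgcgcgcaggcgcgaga
Ogg1: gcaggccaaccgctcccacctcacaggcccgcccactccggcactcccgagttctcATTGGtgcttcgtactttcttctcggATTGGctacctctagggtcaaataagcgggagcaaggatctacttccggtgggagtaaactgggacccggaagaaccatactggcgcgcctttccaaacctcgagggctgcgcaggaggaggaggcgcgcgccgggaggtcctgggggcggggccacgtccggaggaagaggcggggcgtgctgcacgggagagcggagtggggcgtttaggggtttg
In Bard1 the capitals mark a CHR element and an E2F site that begin 242 and 209 bases before the start. In Brca2 they mark 1 E2F site, read on the other strand, 168 bases before the start. In Msh3, whose transcript was higher, they mark 2 overlapping E2F spellings on opposite strands, at 202 and 198 bases before the start. In Ogg1 they mark 2 CCAAT boxes on the other strand, at 194 and 168 bases before the start. An E2F spelling was present in Bard1, which was lower, and in Msh3, which was higher. Bard1 was picked for its E2F match, so these examples do not show how common a match is among lower genes.

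Reads that could belong to another gene were counted from the annotation. Of the 49 genes, 23 share no annotated exon base with another gene and 11 share more than 10%. Over the 38 genes that share 10% or less, 7 were lower after glucose oxidase and 13 with both agents. Among all listed genes 8.60% and 8.04% were lower. The medians of the 38 were -0.21 and -0.51. None of the 38 was higher after glucose oxidase and 1 was with both agents, since Rad54b and Ogg1 share more than 10%. Of stretches of 50 bases in the transcripts of each gene, 9 genes had more than 10% in common with another gene. Fanci shares 921 exon bases with Polg on the other strand, which had 3054, 3003 and 3382 reads, and Rad54l shares 1184 with Lrrc41, which had 1559, 1556 and 1808. These neighbours stayed near control while Fanci and Rad54l were lower.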

How the data were processed

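RNA was sequenced from 1 library per group after a stranded mRNA preparation, per the labels' protocols. STAR, featureCounts and mm10 are named in the submitters' processing notes, with no versions or strand setting. The authors deposited counts per gene for the control library and the library with both agents, and log2 differences for both comparisons against control. Only the log2 difference was deposited for glucose oxidase, so its reads were recovered from it. An inverse hyperbolic sine transform applied to square roots of counts, with 2 constants, matched the deposited values to 2.0e-08. Of 18258 genes matched by symbol, 100% then came out within 0.0100 of a whole read (largest distance 0.000138), against 3.30% with 1 read added to control. The other 29 genes were placed by whole reads. The transform is not stated by the authors.

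Counts were scaled by median-of-ratios size factors (1.03, 0.965 and 1.04), and 10 was added before the log2 ratio; the limit was 1. Depth was 35969965, 35005089 and 40212212 reads. Intervals are 95% Clopper-Pearson or Poisson intervals. PCR duplicates are not independent molecules, so they cover counting error only. With 1 library per group no count model was used, and no p-value was computed. The steps were tested on simulated data. Software was Python 3.11.15, numpy 2.4.6, scipy 1.17.1, pandas 2.3.3 and matplotlib 3.10.9.

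The 49 genes and all lists were chosen with earlier results of these data known. By rule, all 49 were named, with the 2 lowest and 2 highest genes of each other list by log2 ratio with both agents, except some that are not reported here. Neighbours were named by position, and those described were chosen after their values were seen. Promoters were printed for the 2 lowest genes with an E2F match and the 2 highest with an entry. Exons came from GENCODE M21 (GRCm38). A deposited table of 7 genes comparing the treated libraries was used to fit 2 constants. From these the deposited-scale values between the treated libraries were computed for all listed genes. Beyond the 7 genes these values were not given by the authors. Alternatives were other pseudocounts, scalings, limits and a filter on low counts.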

Additional observations from a re-analysis of the deposited data

How the results depend on the processing

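No paired analysis was possible because each group has 1 library, and for the same reason no library could be left out. No median log2 ratio of the set changed sign under any setting that gave one. A count of lower or higher genes cannot reverse, and counts that moved are given here. With 50 added in place of 10, 1 gene rather than 2 was higher after glucose oxidase, where 2.27% of all listed genes were. The median with both agents was then -0.37 rather than -0.49. Between the treated libraries 2 genes rather than 6 were lower with 50 added, where 0.640% of all listed genes were. Total-count scaling left 1 gene higher after glucose oxidase, where 3.79% of all listed genes were. It gave a median of -0.63 with both agents, where the median of all genes moved to -0.13. On the deposited scale 3 genes rather than 10 were lower and 1 higher after glucose oxidase, where 2.50% and 1.51% of all listed genes were. The median with both agents was -0.36. Between the treated libraries this scale was computed here from constants fitted to 7 deposited values. There 0 genes were lower, against 0.0383% of all listed genes, with a median of -0.08. Size factors from protein-coding genes, chosen after seeing the data, left 1 gene higher after glucose oxidase, where 3.87% of all listed genes were. Ogg1 was the higher gene lost in these 4 settings, and Rad54b was kept. A limit of 0.5 gave 17 lower and 5 higher genes of the 49 after glucose oxidase, where 20.3% and 13.5% of all listed genes were. With both agents 6 were higher, against 19.2%. Between the treated libraries 14 were lower and 2 higher, against 12.0% and 13.6%. At this limit the set's shares of higher genes lay below those of all listed genes. A limit of 1.5 gave 5 lower and 1 higher after glucose oxidase, where 4.42% and 1.70% of all listed genes were. It gave 2 lower between the treated libraries, against 0.334%. The count of 16 lower genes with both agents became 12 with 50 added and 12 on the deposited scale. Of all listed genes 4.93% and 5.17% were lower in these 2 settings. Each time the genes lost were Bard1, Palb2, Pms2 and Rad51b. Adding 1 in place of 10 and keeping genes with a mean normalized count of 50 or more left each count within 1.5 times, and the filter kept all 49 genes. Single genes changed sign only near 0 (Rad50, Rad52, Xrcc1, Xrcc5, Xrcc6, Parp2 and Fance). Depth limits genes with few reads, such as Rad51b (30 to 75 reads), Msh4 (28, 6 and 3) and Fsbp (10, 5 and 8), and the cause of the changes was not tested.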

Other observations

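Repair genes of other routes, outside the 49, were read from the same tables. With both agents 8.04% of all listed genes were lower and 6.66% higher, and the lists below are too short to set against those shares. Of 20 other nucleotide excision genes none was lower and 1 was higher with both agents, with a median log2 ratio of 0.10. The higher gene was Ercc6, which helps RNA polymerase past damage, at 527 reads in the control library, 832 with glucose oxidase alone and 1380 with both agents. Ddb2, a sensor of damaged bases, had 112, 193 and 195 reads. The lowest were Ercc4, the partner of Ercc1 in 1 nuclease, at 1191, 980 and 760 reads, and Cetn2 at 1465, 1048 and 1073. Ercc1 and Ercc4 thus lay on opposite sides of control, at 0.73 and -0.65.

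Of 12 other end joining genes 1 was lower and 1 higher with both agents: Aplf had 421, 263 and 202 reads and Aptx, which removes stalled ligase products, had 359, 656 and 764. The ligase Lig4 had 703, 1065 and 1235 reads, and Nhej1, which bridges the ends, had 107, 87 and 56. Of 16 other translesion and checkpoint genes 1 was lower: Clspn, the adaptor through which Atr activates Chek1, had 808, 244 and 99 reads beside 230, 108 and 50 for Chek1. Topbp1 was at -0.83, and the polymerases Poli and Polk were at 0.48 and 0.40. Of 6 other mismatch repair genes 1 was lower, Msh4, with 28, 6 and 3 reads. Msh5 and Mlh3 were at -0.22 and 0.39.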
